A study of Mus musculus with 10 samples.

Results

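The 2 replicate series of a Xist induction time course were set against each other to ask which genes differed between them at every time and whether the allelic shares differed as well. Series 1 holds the 5 samples labelled Rep1 and series 2 the 5 labelled Rep2, so that the comparison takes all 10 of the 10 samples of the study, paired by time into 5 pairs. All samples are TX1072 cells, a female mouse embryonic stem cell (ESC) line from a cross of C57BL/6 (B6) with Mus musculus castaneus (Cast), of wild-type genotype, in which doxycycline (DOX) switches on the endogenous Xist gene of the B6 X chromosome. Only this 1 line was used, and all samples grew in serum with LIF and 2i, inhibitors of MEK and GSK3 that hold ESCs in the naive state. Each series has a sample at 0 h, without DOX, and samples treated with DOX (1 µg/ml) for 4, 8, 12 and 24 h. TT-seq captures RNA made during a short pulse of 4-thiouridine, here 5 min, and so reads transcription of the last minutes, introns included. The labels do not say whether the samples of a series came from 1 culture. The p-values below therefore concern these particular series over the 5 times, and may not describe separate cultures. The edgeR fits also share their estimate of spread over genes. A small p thus need not mean a difference steady at every time, least of all for the B6 share of deeply read genes.

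ESCs kept in culture are a mixed and shifting population. They pass between a naive state, held by factors such as Pou5f1 and Nanog, and states closer to differentiation, and FGF-ERK, Wnt and BMP signalling set the balance. Imprinted genes, expressed from 1 parental allele and held by DNA methylation, and whole chromosome regions can drift as a line is passaged. Xist RNA coats the X chromosome that makes it and silences its genes, so in these cells the B6 share of X-linked reads falls after DOX in both series.

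Each library held 18809046 to 22274929 counted read pairs. One library stood apart before any comparison of genes: in the 0 h library of series 1, reads assigned to an allele made up 49.2% of all counts, while the other 9 libraries held 51.7% to 52.8%. Counts that the 0 h pair moved by over 1.5 times are therefore also given without it. As to the labelled cell type, 7 of 8 ESC markers were read in all libraries, Nanog among them at a mean of 301 CPM, counts scaled to library size as counts per 1e6, and the 8th, Sox2, is listed at 0 throughout. The 8 markers summed to 2006 to 2169 CPM in series 1 and 1970 to 2166 in series 2. Neural markers summed to 13.1 to 23.1 CPM over all libraries, with Sox1 at 0, and mesoderm markers to 7.33 to 10.9 CPM. Fibroblast markers summed to 133 to 153 CPM, most of it Fbln1 (mean 135 CPM), with Lum and Postn at 0 in every library. As the ESC marker Sox2 is listed at 0 too, a 0 need not mean that a gene was silent. Of these neural, mesoderm and fibroblast markers, only Nes and Col1a2 differed between the series (edgeR adjusted p = 0.026 and 0.012). Both were lower in series 2.

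Of 14006 genes tested, 1705 differed between the series at an adjusted p under 0.05 (12.2%), 738 of them higher in series 2 (5.27%) and 967 lower (6.9%). The test was edgeR's quasi-likelihood test with time as the pairing term and Benjamini-Hochberg adjustment over all genes tested, and every log2 change below is series 2 over series 1. Most differences were small. The median absolute log2 change of the called genes was 0.24, 209 of them passed 0.5, and 15 passed 1. The sign was the same at all 5 times for 1438 of the 1705 called genes (84.3%), against 21.6% of all genes tested. The calls were made from these same differences, so a high share among them was built in and is no separate support. Series accounted for 20.1% of the sum of squares of log2 CPM over the tested genes on 1 degree of freedom, time for 48.9% on 4, and 31.0% was left over on 4. Without the 0 h pair 869 genes were called, 846 of them among the 1705, and 1703 of the 1705 kept their sign. The pairs kept had also gave rise to the calls, so this overlap was favoured too. DESeq2 called 951 genes, 515 higher and 436 lower, so that higher genes made up 54.2% of its calls against 43.3% here, and it gave 2987 genes no adjusted p.

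The genes furthest apart, by the naming rule, were genes of low transcription. The 12 that led the higher side, with log2 changes of 1.26 down to 0.81, included Acss3, Spry4, Prlr, Sh3bgrl, 2610037D02Rik, Tph2, Atp2b2, Ttc21b, Spag16, Ddx60 and Lypd6b. The 12 on the lower side were Hoxa9, Hoxc9, Hoxa10, Hoxa3, Cd3d, Cd3g, Ms4a10, Acadvl, Apol6, Cited1, H19 and Cdx2, with log2 changes of -1.34 to -0.77. Without the 0 h pair, Ddx60 (0.70, edgeR adjusted p = 0.052) and Cited1 (-0.50, edgeR adjusted p = 0.25) lost the call and the others kept it. In what follows, 5 values in a row stand for 0, 4, 8, 12 and 24 h.

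**Figure D1:**
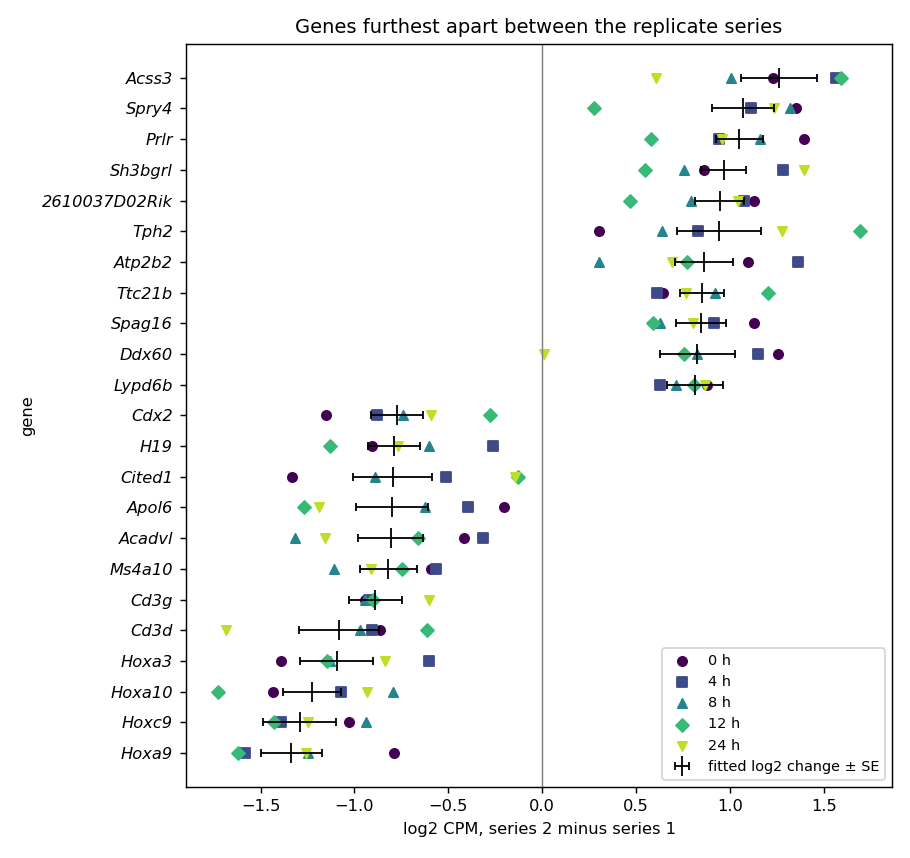
Differences between the series for the genes named as furthest apart (y axis, gene). The x axis is log2 CPM of series 2 minus series 1, each coloured marker is 1 time pair, and the black bar is the fitted log2 change ± SE. All markers lie on 1 side of 0 for each gene because the naming rule asked for that, and Ddx60 at 24 h (0.01) lies closest to 0.

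Hox genes, which give cells their place along the body axis and are kept quiet by Polycomb in ESCs, led the lower side. Hoxa9 stood at 2.75, 3.196, 3.29, 2.79 and 2.91 CPM in series 1 and at 1.55, 1.00, 1.33, 0.84 and 1.163 CPM in series 2. The series did not overlap at any time, and the log2 change was -1.34 ± 0.16 (SE, n = 5 pairs, edgeR adjusted p = 9.07e-07). Over all 14006 genes tested, 822 (5.87%) had 5 values that did not overlap between the series. Of these 659 were called, so a lack of overlap, here and below, does not set a called gene apart. Hoxa10 gave -1.23 ± 0.15 (edgeR adjusted p = 1.11e-06), from 3.55 ± 0.63 CPM (SD, n = 5) in series 1 to 1.53 ± 0.42 in series 2. After these values were seen, all Hox genes were counted: 11 were tested, 6 were lower in series 2 and none higher, with a median log2 change of -0.97. Over all genes tested 6.9% were lower, but the 6 include the 4 Hox genes that prompted the count. Beside the 4 named above, the lower ones were Hoxa7 (-0.97) and Hoxc10 (-1.40). The Hox genes not called included Hoxc13 (-0.26, edgeR adjusted p = 0.12), Hoxc12 (-0.28) and Hoxb9 (-0.05).

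Cdx2, a trophectoderm and posterior patterning factor, was lower in series 2 as well. Its level was 5.69, 4.24, 3.48, 3.08 and 3.01 CPM in series 1 and 2.51, 2.26, 2.05, 2.52 and 1.97 CPM in series 2 (log2 change -0.77 ± 0.14, edgeR adjusted p = 0.00022). Every series 2 library lay below every series 1 library. Cdx2 belongs to a list of 7 trophectoderm markers of which 5 were tested. Of these, 3 were lower (Cdx2, Gata3 and Krt18) and none was higher, against 6.9% lower over all genes. DESeq2 called 0 of them. The called members had low mean levels, 3.08 CPM for Cdx2, 2.37 for Gata3 and 0.55 for Krt18. Tfap2c, the member with the highest level (13.1 CPM), changed by 0.13 and Krt8 (0.66 CPM) by -0.63, neither of them called. The summed level of that list was 15.8 to 25.05 CPM in series 1 and 14.0 to 20.8 CPM in series 2, so that it overlapped between series, and its part in the Hox result was not tested. In bulk RNA, fewer cells of a type and less RNA per cell cannot be told apart.

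On the higher side, Acss3, an acyl-CoA synthetase of mitochondria, stood at 0.61, 0.63, 0.89, 0.54 and 1.06 CPM in series 1 and at 1.55, 2.05, 1.89, 1.82 and 1.66 CPM in series 2. The lowest series 2 value was above the highest of series 1 (log2 change 1.26 ± 0.20, edgeR adjusted p = 5.38e-05). Prlr, the prolactin receptor, rose from 2.59 ± 0.55 to 5.38 ± 1.53 CPM (SD, n = 5 each; log2 change 1.05 ± 0.13, edgeR adjusted p = 6.48e-07). Sh3bgrl is X-linked, and its 5 values were 4.29, 3.301, 3.72, 2.93 and 1.61 CPM in series 1 and 7.89, 8.16, 6.34, 4.34 and 4.39 in series 2. It was higher in series 2 at each time (0.97 ± 0.12, edgeR adjusted p = 9.95e-07). The smallest count of these 12 genes in any library was 6, for Tph2, so that their values at single times carry much counting error.

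FGF-ERK feedback genes, which are transcribed in answer to ERK activity and restrain it, gave 2 higher and 0 lower of 13 tested (median log2 change 0.04, against -0.01 over all genes tested). The share higher was 15.4% against 5.27% over all genes, the share called in either direction 15.4% against 12.2%, and DESeq2 called 1. Spry4, an inhibitor of receptor tyrosine kinase signalling, stood at 1.35, 1.36, 0.99, 2.298 and 1.41 CPM in series 1 and at 3.60, 3.05, 2.61, 2.80 and 3.45 CPM in series 2 (log2 change 1.07 ± 0.17, edgeR adjusted p = 2.86e-05). The series were closest at 12 h. Spred1, which holds back RAF activation, rose from 74.6 ± 7.58 to 88.0 ± 3.78 CPM (log2 change 0.24 ± 0.05, edgeR adjusted p = 0.00087). Dusp9, the X-linked ERK phosphatase, fell: it was at 27.1, 21.7, 19.15, 16.7 and 16.9 CPM in series 1 and 16.9, 16.0, 21.4, 13.4 and 10.6 CPM in series 2, lower at 4 of 5 times (-0.38 ± 0.08, edgeR adjusted p = 0.0022), and without the 0 h pair it was no longer called. Klhl13, the other X-linked regulator fixed for naming, is listed at 0 in every library.

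**Figure D2:**
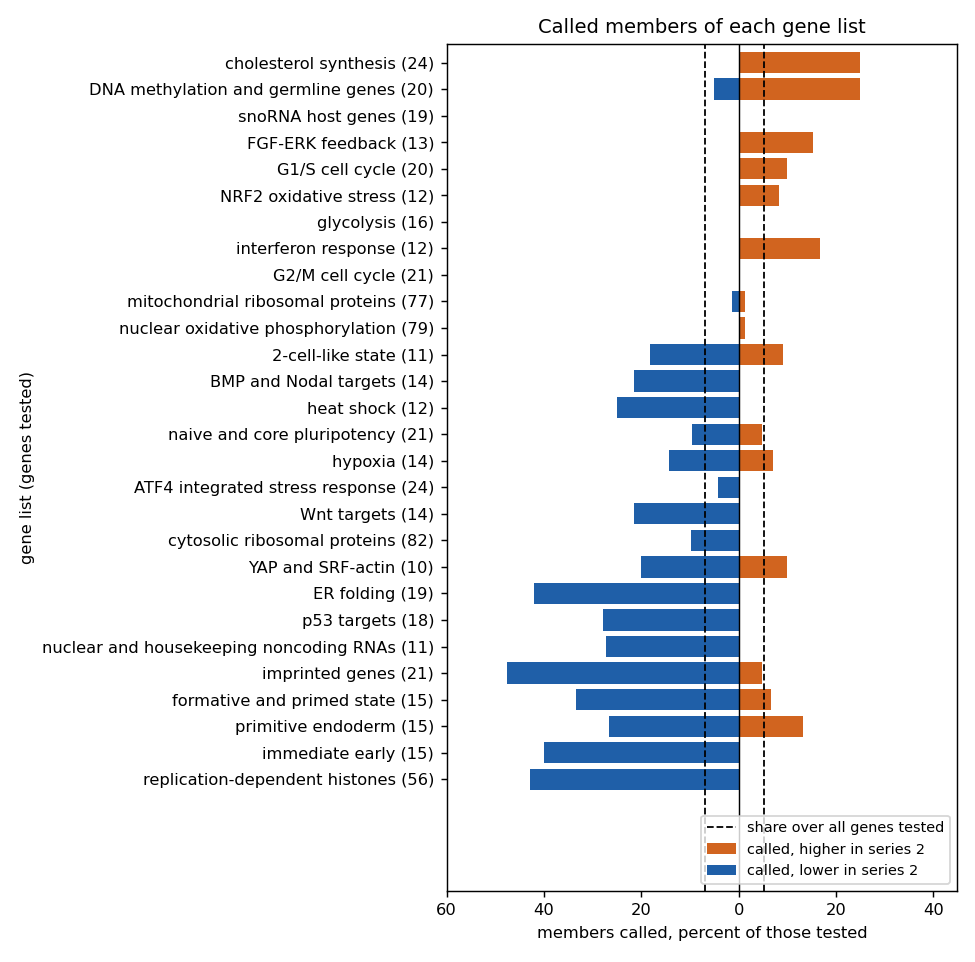
Called members of 28 gene lists with at least 5 genes tested (y axis, number tested in brackets), as percent of the members tested (x axis, both directions from 0). Orange bars are members higher in series 2, blue bars members lower, and the dashed lines mark the shares over all genes tested, 5.27% and 6.9%. Imprinted genes, histones, ER folding and immediate early genes reach furthest on the lower side, and cholesterol synthesis and germline genes on the higher.

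Calls among imprinted genes lay mostly on the lower side. Of 32 listed, 21 were tested, 10 were lower and 1 was higher, with a median log2 change of -0.17, against 6.9% lower and -0.01 over all genes. The median pair difference of the list was negative at each time, from -0.18 at 8 h to -0.07 at 4 h, and 7 members were called lower and 0 higher without the 0 h pair. DESeq2 called 6 lower. Peg10, a paternally expressed gene of retroviral origin, had the largest change for its error: 86.9, 91.9, 87.4, 98.5 and 88.1 CPM in series 1 against 70.0, 74.6, 66.3, 66.2 and 56.7 CPM in series 2 (-0.44 ± 0.05, edgeR adjusted p = 1.35e-07). No series 2 library reached the lowest of series 1. Sgce, its neighbour in the same imprinted cluster, gave -0.24 (edgeR adjusted p = 0.013).

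Further imprinted genes moved the same way from several clusters. Plagl1, a zinc finger factor that restrains growth, fell from 210 ± 11.2 to 176 ± 2.89 CPM (-0.25 ± 0.04, edgeR adjusted p = 4.62e-05). Airn, the noncoding RNA antisense to Igf2r, changed by -0.27 ± 0.05 (edgeR adjusted p = 0.00016), and Igf2r itself by -0.13 (edgeR adjusted p = 0.027). H19, the noncoding RNA next to Igf2, was at 5.04, 2.36, 3.62, 4.20 and 2.96 CPM in series 1 and 2.64, 1.95, 2.35, 1.87 and 1.70 CPM in series 2 (-0.79 ± 0.14). Its series overlapped. Peg3, Grb10, Gnas and Meg3 were also lower, by -0.25 to -0.17. Ube3a was the 1 member that was higher (0.16, edgeR adjusted p = 0.028), and Slc38a4 (0.09), Impact (0.04) and Kcnq1ot1 (-0.05) were not called.

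Genes of DNA methylation and the germline, many of them held silent by promoter methylation, gave 5 higher and 1 lower of 20 tested (median log2 change 0.07), which is 25% higher against 5.27% over all genes. Those higher were Stag3, Sycp1, Sycp3, Tex11 and Ddx4, of which the first 3 encode parts of the synaptonemal complex and cohesin of meiotic chromosomes. Stag3 stood at 13.7, 10.1, 12.3, 11.2 and 11.7 CPM in series 1 and 18.1, 17.9, 17.4, 16.2 and 16.5 CPM in series 2 (0.55 ± 0.07, edgeR adjusted p = 2.91e-06), with no overlap. Sycp1 rose from 12.5 ± 2.28 to 17.9 ± 2.21 CPM (0.51 ± 0.07, edgeR adjusted p = 1.11e-05). Tet3, an enzyme that oxidises methylcytosine, was the 1 that fell (-0.32 ± 0.05, edgeR adjusted p = 4.61e-05). The maintenance methyltransferase Dnmt1 was at -0.04 and Tet1 at 0.10, neither of them called. Without the 0 h pair 3 genes were called higher and 1 lower, and DESeq2 gave the same counts.

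Of 21 naive and core pluripotency factors tested, 1 was higher and 2 were lower (median -0.06). This is 14.3%, near the 12.2% over all genes, and Nanog (0.03), Esrrb (-0.01), Zfp42 (0.07) and Klf4 (-0.06) were not called. Pou5f1, which encodes OCT4, was at 135, 120, 116, 114 and 129 CPM in series 1 and 103, 104, 108, 106 and 108 CPM in series 2. The series did not overlap (-0.22 ± 0.04, edgeR adjusted p = 0.0012). Prdm14, a repressor that keeps DNA methylation low in naive cells, changed by -0.19 ± 0.05 (edgeR adjusted p = 0.0071), and Stat3, the effector of LIF, by 0.13 ± 0.05 (edgeR adjusted p = 0.046).

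Of 15 genes of the formative and primed state, 5 were lower and 1 was higher (median -0.18), or 33.3% lower against 6.9% over all genes. The lower count was 3 without the 4 h pair, without the 24 h pair and with DESeq2. The lower ones were Grhl2, Cdh2, Dnmt3b, Tcf15 and Pou3f1, with log2 changes of -0.47 to -0.18. Lin28b, an RNA-binding protein that blocks let-7 maturation, moved the other way and was at 79.1, 87.6, 90.7, 93.1 and 91.1 CPM in series 1 and 116, 119, 118, 111 and 106 CPM in series 2 (0.37 ± 0.05, edgeR adjusted p = 1.2e-06). Its pair difference was 0.56 at 0 h and 0.22 at 24 h. In the primitive endoderm list 4 of 15 were lower and 2 higher, or 26.7% and 13.3% against 6.9% and 5.27% over all genes. Hnf4a fell from 13.8 ± 1.33 to 9.50 ± 1.05 CPM (-0.54 ± 0.08, edgeR adjusted p = 2.89e-05). Dab2, an endocytic adaptor, rose from 7.16 ± 0.58 to 10.6 ± 0.59 CPM (0.57 ± 0.09, edgeR adjusted p = 2.94e-05). The defining factors Gata4 (-0.11) and Gata6 (-0.39) were not called and had means of 1.33 and 0.53 CPM. Without the 0 h pair the lower members of this list numbered 2.

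Genes of the 2-cell-like list gave 2 lower and 1 higher of 11 tested (median -0.01), shares of 18.2% and 9.09% against 6.9% and 5.27% over all genes. Pramel7, a leucine-rich repeat protein of early embryos, stood at 17.6, 17.5, 18.8, 23.3 and 20.6 CPM in series 1 and 12.7, 11.7, 12.6, 13.3 and 12.1 CPM in series 2 (-0.64 ± 0.07, edgeR adjusted p = 1.25e-07). Pramel6 gave -0.62 ± 0.11. Both are members of a family of near copies, so their counts are uncertain, and the higher gene was Gm5662 at 0.65 ± 0.13 and 1.161 ± 0.41 CPM.

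Wnt target genes gave 3 lower of 14 tested and BMP and Nodal targets 3 lower of 14, with none higher in either list (medians -0.08 and -0.01). Each count is 21.4% against 6.9% over all genes, and DESeq2 called 1 in each list. Apcdd1, a membrane inhibitor of Wnt signalling, was at 80.04, 74.6, 77.4, 74.8 and 68.3 CPM in series 1 and 60.5, 59.8, 58.9, 62.2 and 55.7 CPM in series 2. The series were apart at every time (-0.34 ± 0.04, edgeR adjusted p = 2.9e-06), and the other Wnt targets called were Cdx2 and Cdx1 (-0.19). Smad6, an inhibitor of BMP signalling and itself a BMP target, fell from 122 ± 9.70 to 98.8 ± 2.52 CPM (-0.30 ± 0.05, edgeR adjusted p = 3.71e-05), and Pmepa1 (-0.18) and Id2 (-0.57) were the other 2. Of the BMP and Nodal targets, 1 was called without the 0 h pair and 1 without the 4 h pair.

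Genes of cholesterol synthesis and uptake were the list with the most members on the higher side. Of 24 tested, 6 were higher and 0 lower (median 0.08), or 25% higher against 5.27% over all genes, and 23 had a log2 change above 0. The number called higher was 6 without the 0 h pair, 6 without the 4 h pair, 4 without the 24 h pair and 5 with DESeq2. The median pair differences were 0.11, -0.02, 0.09, 0.24 and 0.10. Among those higher were the enzymes Msmo1 (0.20), Lss (0.20) and Hsd17b7 (0.23). Lss, lanosterol synthase, stood at 52.6, 50.1, 50.8, 45.7 and 48.9 CPM in series 1 and 57.9, 53.7, 57.7, 58.0 and 57.1 CPM in series 2 (SE 0.05, edgeR adjusted p = 0.0053). The series did not overlap. Hmgcs1 (0.04), Sqle (0.07) and the regulator Srebf2 (0.02) were not called.

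Sterol genes are switched on by SREBP together with NF-Y, whose box reads CCAAT, so the promoters of the called members are shown with that box, on either strand, in capitals. Of the 25 genes listed, 17 had a promoter in the RefSeq table of build GRCm38.p6, which lists 20 promoters for them, some genes having several. In 15 of the 20 promoters the 150 bases before the start held CCAAT, as did 24.5% of all 32851 promoters in that table. All 3 of the called members with a promoter held it. The sterol element TCACNCCAC was in 1 of the 20 (Hmgcs1), on either strand, and in 0.64% of all promoters. The sequences of the 3 called members, 5′ to 3′ on the strand of the gene, come from chr10:76531455-76531604 (+) for Lss, chr8:64733579-64733728 (-) for Msmo1 and chr1:169969206-169969355 (-) for Hsd17b7. A match in letters is a description and no sign of binding.
Lss: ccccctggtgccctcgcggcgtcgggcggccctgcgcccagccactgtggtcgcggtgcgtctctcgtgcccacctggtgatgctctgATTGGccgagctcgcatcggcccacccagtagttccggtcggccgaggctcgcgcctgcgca
Msmo1: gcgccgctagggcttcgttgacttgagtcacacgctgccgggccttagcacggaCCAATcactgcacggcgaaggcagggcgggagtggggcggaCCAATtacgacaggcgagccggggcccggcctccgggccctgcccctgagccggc
Hsd17b7: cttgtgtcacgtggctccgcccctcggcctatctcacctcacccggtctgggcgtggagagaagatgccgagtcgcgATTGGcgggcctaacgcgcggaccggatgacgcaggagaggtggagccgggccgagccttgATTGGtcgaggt

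Metabolic and stress lists were mixed. Glycolysis (16 tested) and G2/M genes (21 tested) had no member called by edgeR or by DESeq2 (1 and 4 at an unadjusted edgeR p under 0.05). With the length trend removed, 2 glycolysis genes and 1 G2/M gene were called, and without the 0 h pair 1 G2/M gene. Pkm, a glycolytic enzyme, was at 780 ± 38.8 and 785 ± 19.5 CPM, and the log2 change of Top2a, a mitotic topoisomerase, was 0.09 ± 0.04 (edgeR adjusted p = 0.15). Nuclear oxidative phosphorylation had 1 of 79 called (Ndufa9, 0.15), or 1.27%, and mitochondrial ribosomal proteins 2 of 77 (Mrps35 higher, Mrps2 lower), or 2.60%. The snoRNA host genes had 0 of 19 called (5 at an unadjusted edgeR p under 0.05). Over all genes tested the share called was 12.2%. Of the snoRNA host genes 0 were called by DESeq2, 2 with RLE size factors, 3 without the 24 h pair and 6 with the length trend removed, all higher. Without the 0 h pair Ndufa9 and Mrps35 lost the call. In the hypoxia list Vegfa, the endothelial growth factor, was at 48.4, 52.0, 51.8, 51.3 and 48.9 CPM in series 1 and 35.2, 39.2, 41.7, 41.3 and 41.3 CPM in series 2 (-0.35 ± 0.05, edgeR adjusted p = 6.74e-06). Pdk1, which turns pyruvate away from mitochondria, went the opposite way (0.30 ± 0.05, edgeR adjusted p = 0.0001), Egln1 fell (-0.19, not called without the 0 h pair), and 11 of the 14 were not called. The hypoxia shares were 7.14% higher and 14.3% lower, against 5.27% and 6.9% over all genes. The interferon list had 2 of 12 higher (16.7% against 5.27% over all genes). They were the RNA sensor Ddx58 (0.32) and Rsad2 (0.69), neither of which was called without the 0 h pair or by DESeq2. The G1/S list had 2 of 20 higher (Ccne2 and Slbp) and the NRF2 list 1 of 12 (Prdx1, 0.14), shares of 10.0% and 8.33% against 5.27% over all genes, and without the 0 h pair both lists had 0 called.

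Of 56 replication-dependent histone genes tested, 24 were lower and 0 higher (42.9% lower, against 6.9% over all genes), with a median log2 change of -0.26 and median pair differences of -0.31, 0.08, -0.18, -0.22 and -0.66. The 0 h and 24 h pairs thus differed most, and 11 were called without the 0 h pair, 5 without the 24 h pair and 33 without the 4 h pair, while DESeq2 called 6. Hist1h1e, a linker histone gene, was at 25.9, 23.6, 19.9, 24.9 and 26.4 CPM in series 1 and 17.7, 25.01, 17.8, 17.6 and 14.3 CPM in series 2 (-0.40 ± 0.08, edgeR adjusted p = 0.0013). Histone genes have near copies, so single members are uncertain.

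In 3 further lists all calls were on the lower side, though most members were not called. ER folding genes had 8 lower and 0 higher of 19 (median -0.13), and Xbp1, the factor that drives the unfolded protein response, fell from 35.7 ± 3.60 to 29.5 ± 1.34 CPM (-0.27 ± 0.05, edgeR adjusted p = 0.00078), beside the chaperones Hspa5 (-0.15) and Pdia6 (-0.19). Immediate early genes had 6 lower of 15 (median -0.22): Atf3 (-0.47), Jun (-0.59), Cyr61 (-0.40), Btg2 (-0.34), Dusp1 (-0.26) and Klf6 (-0.22). Among p53 targets 5 of 18 were lower (median -0.13), among them Sesn1 (-0.17) and Cdkn1a (-0.17). Cdkn1a was lower at 0, 4 and 8 h only, with pair differences of 0.03 at 12 h and 0.04 at 24 h. The ATF4 list had 1 lower of 24 (4.17%, against 6.9% over all genes), Chac1 (-0.38), which was not called without the 0 h pair. The shares lower were 42.1%, 40.0% and 27.8% for ER folding, immediate early genes and p53 targets, against 6.9% over all genes. Without the 0 h pair the lower members numbered 3, 3 and 2 in the same order, without the 4 h pair 3, 3 and 1, without the 24 h pair 3, 2 and 4, and with DESeq2 2, 1 and 1.

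Gene length moved with these results. Over the 423 genes tested with a span under 2 kb, the median pair differences were -0.26, -0.05, 0.05, -0.03 and -0.25, and over the 505 genes above 300 kb they were 0.07, 0.15, -0.02, -0.05 and 0.05. With a smooth trend on gene length removed from each library, 10 histone genes, 6 ER folding genes, 4 immediate early genes and 1 p53 target were lower, while imprinted genes gave 11 lower and cholesterol genes 8 higher. Its part in these lists was otherwise not tested. The share of genes called was 10.4% under 2 kb, and it rose from 6.85% at 2 to 10 kb to 21.8% above 300 kb. Cytosolic ribosomal protein genes, with a median span of 2.99 kb, had 8 lower of 82 (9.76%, near the 6.9% over all genes) and median pair differences of -0.29, -0.07, 0.22, -0.05 and -0.23. Of the 82, 2 were called lower without the 0 h pair, 4 without the 4 h pair, 1 without the 24 h pair, 1 with DESeq2, and 2 with the length trend removed, where 1 was also called higher. Heat shock genes had 3 lower of 12 (25%, against 6.9% over all genes), which became 1 without the 0 h pair, 0 without the 4 h pair, 1 without the 24 h pair and 0 with DESeq2. The YAP list had 2 lower and 1 higher of 10 (20% and 10%, against 6.9% and 5.27%), with 1 lower left without the 0 h pair.

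Rmrp and Rpph1, the RNA parts of RNase MRP and RNase P, varied within series 1. Rmrp was at 139, 92.9, 85.8, 192 and 282 CPM in series 1 and at 86.7, 86.4, 93.9, 80.2 and 76.7 CPM in series 2, and Rpph1 at 106, 65.1, 64.1, 153 and 236 against 66.5, 68.1, 75.1, 66.5 and 58.8 CPM. Series 1 alone was uneven, and at 4 and 8 h the series lay within 0.23 of each other on the log2 scale. Both were called (-0.78 ± 0.14 and -0.74 ± 0.15, edgeR adjusted p = 0.00019 and 0.0011), as was Meg3 in the same list of 11 noncoding RNAs tested, of which 0 were higher and DESeq2 called 0. The share of that list called lower was 27.3% against 6.9% over all genes.

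No gene was called for a series difference at 0 h that differed from the later times (edgeR interaction test, smallest adjusted p = 0.11), with 963 genes at an unadjusted p under 0.05. limma voom also gave 0, and DESeq2 gave 26, all of them more positive at 0 h. The gene with the smallest p, named after its value was seen, was Tsc22d2, whose pair differences were 0.49, -0.01, -0.10, 0.05 and -0.01. Next came Rps21, with -0.73, -0.07, 0.52, 0.03 and -0.20.

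Xist was lower in series 2 after induction. It was at 1.49, 441, 669, 658 and 477 CPM in series 1 and 1.41, 334, 480, 515 and 414 CPM in series 2, with 32 and 31 counts at 0 h. The difference was negative at all 5 times (-0.35 ± 0.05 on the log2 scale, edgeR adjusted p = 2.36e-06), and in an exact two-sided sign-flip permutation test of the CPM over the 5 pairs p was 0.063, the smallest the design allows (0.44 adjusted over 7 single values). After DOX nearly all its allelic reads were B6 in both series, for instance 3764 B6 and 7 Cast reads at 4 h in series 1 and 2936 and 6 in series 2.

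**Figure D3:**
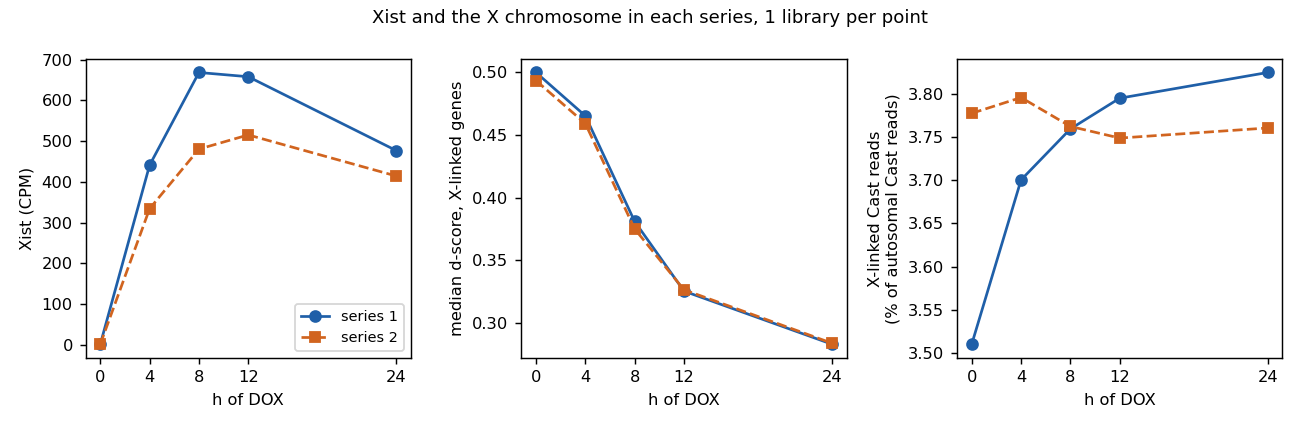
Xist transcription in CPM (left), the median d-score of 337 X-linked genes (middle) and X-linked Cast reads as percent of autosomal Cast reads (right), by hours of DOX (x axis), with series 1 as blue circles and series 2 as orange squares, 1 library per point. Xist lies lower in series 2 at 4 to 24 h, the median d-scores differ by at most 0.0065, and the Cast reads differ most at 0 h (3.51% and 3.78%).

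The fall of the X-linked B6 share ran closely in both series. The d-score is the share of B6 among the B6 and Cast reads of a gene, and over 337 X-linked genes its median was 0.500, 0.465, 0.381, 0.325 and 0.283 in series 1 and 0.494, 0.459, 0.375, 0.326 and 0.284 in series 2. The mean difference was -0.0033 ± 0.0039 (SD, n = 5 pairs, exact sign-flip permutation p = 0.25). Over 10337 autosomal genes the medians lay between 0.519 and 0.522 in all 10 libraries. X-linked Cast reads, as percent of autosomal Cast reads, were 3.51, 3.70, 3.76, 3.80 and 3.83 in series 1 and 3.78, 3.80, 3.76, 3.75 and 3.76 in series 2, so that only the 0 h pair was apart by more than 0.1. In total counts 85 of 471 X-linked genes were called (18.0%), 38 higher and 47 lower, beside 12.0% of 13532 autosomal genes.

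Gene by gene, the B6 share differed between the series for 91 of 11906 genes that had 10 or more allelic reads in each library (0.764%), 47 with a higher share in series 2 and 44 with a lower one (edgeR on both allele counts, adjusted p under 0.05). Among them 27 (29.7%) were also called for total counts, which is 1.58% of the total-count calls. The typical shift was small, with a median of 0.032 in d-score and a maximum of 0.153. Its sign was the same at all 5 times for 83 of the 91, a number that selection from these same differences raises. By the naming rule the largest shifts upward were in Gm14164, Nmnat3, Pde12, Gna14, Cmc1 and Tox and downward in Zmiz2, Greb1, Rab2b, Dsg2, Msl3 and Tec. Nmnat3, an enzyme of NAD synthesis, had d-scores of 0.277, 0.245, 0.264, 0.244 and 0.259 in series 1 and 0.386, 0.393, 0.442, 0.289 and 0.353 in series 2 (edgeR adjusted p = 0.0016, at least 128 allelic reads per library). Its total counts were not called (0.04).

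The calls with the smallest p, named after their values were seen, were shifts of a few hundredths in deeply read genes. Bcat1, a transaminase of branched-chain amino acids (chr6:144993835-145076157, mm10), had d-scores of 0.462, 0.459, 0.461, 0.450 and 0.454 in series 1 and 0.493, 0.493, 0.490, 0.486 and 0.496 in series 2, on at least 13721 allelic reads per library. The 5 values of each series fell within 0.012 of each other (edgeR adjusted p = 2.84e-23). Tmem108, a membrane protein of neurons, moved from 0.267 ± 0.0094 to 0.323 ± 0.0095 (SD, n = 5, edgeR adjusted p = 3.62e-17). Hmga2, a chromatin protein of growing cells, moved the other way, from 0.376 ± 0.0024 to 0.339 ± 0.013 (edgeR adjusted p = 4.56e-13), and its total was lower as well (-0.32, edgeR adjusted p = 2.91e-06). For Elmo1, whose share rose by 0.032, the total also rose (0.24).

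Of the 91 genes 12 lay on chromosome 3, or 2.19% of the 548 tested there, against 0.764% over all genes. Beyond 140 Mb lay 10 of these, Hs2st1, Fubp1, Pdlim5, Rabggtb, Pkn2, Ddah1, Syde2, St6galnac3, Ankrd13c and Zzz3. All 10 had a higher B6 share in series 2. That bound was drawn after the calls were seen, so the 18.5% called of the 54 genes tested beyond it only describes where the calls lay. Hs2st1, a heparan sulfate sulfotransferase (chr3:144431107-144570216, mm10), had d-scores of 0.549, 0.534, 0.562, 0.555 and 0.535 in series 1 and 0.588, 0.599, 0.576, 0.586 and 0.586 in series 2 (edgeR adjusted p = 3.32e-08). Fubp1, which binds single-stranded DNA upstream of Myc, moved from 0.549 ± 0.017 to 0.584 ± 0.0085 (edgeR adjusted p = 4.71e-08). The total counts of 9 of the 10 were not called, and Ddah1 was lower (-0.14, edgeR adjusted p = 0.026). The X chromosome held 8 of the 91, or 2.20% of 363 tested against 0.764% over all genes, all of them with a lower fitted B6 share in series 2: A830080D01Rik, Huwe1, Fam120c, Alg13, Rps6ka3, Ap1s2, Kdm5c and Msl3. At 8 h, however, the d-score was not lower in series 2 for Huwe1 (0.3358 in series 1, 0.3361 in series 2) and Rps6ka3 (0.355 and 0.367).

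Because these calls lay side by side, the B6 share was also computed in windows of 10 Mb, a step chosen after the calls per gene were seen. Of 270 windows, 31 were called (11.5%), 16 with a higher share in series 2 and 15 with a lower one. Chromosome 6 held 11 of them among its 15 windows, 8 lower and 3 higher, and chromosome 4 held 5 among its 16, all higher. The differences were small for most (the median absolute difference over all windows was 0.243 percentage points, and 10 windows passed 1 point). On chromosome 6 the lower windows lay between 0 and 100 Mb and the higher between 110 and 150 Mb.

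**Figure D4:**
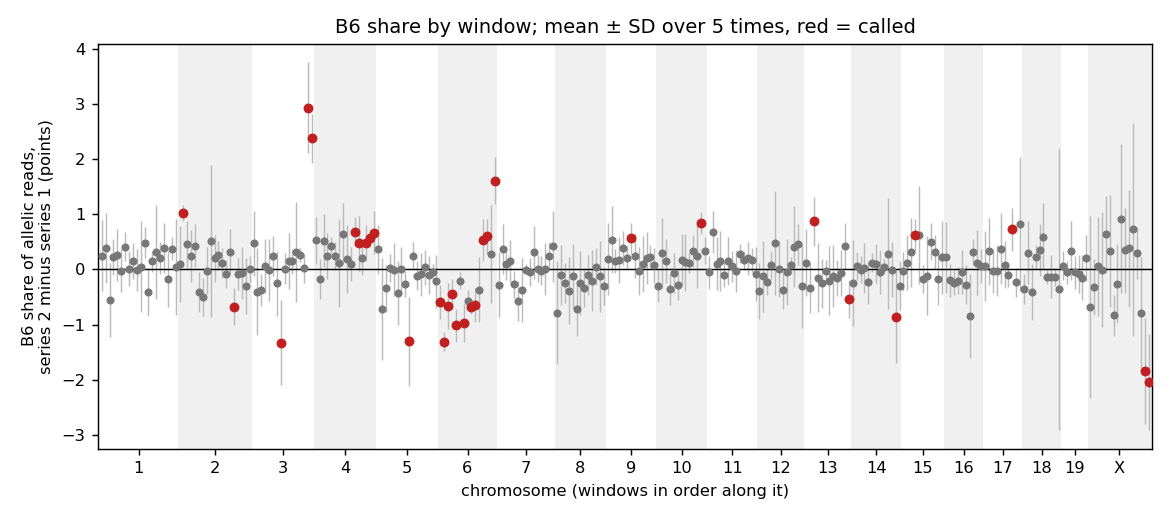
Difference in the B6 share of allelic reads, series 2 minus series 1, in percentage points (y axis) for 270 windows of 10 Mb in order along each chromosome (x axis). Points are means and bars SD over the 5 times, and red points are the 31 called windows. The windows furthest from 0 are at the end of chromosome 3 (2.93 and 2.38 points) and of the X chromosome (-1.84 and -2.05).

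The windows furthest apart were neighbours. On chromosome 3 the B6 share from 140 to 150 Mb was 54.8, 55.6, 56.4, 55.7 and 55.7% in series 1 and 58.7, 58.7, 58.0, 58.5 and 58.9% in series 2, a difference of 2.93 ± 0.82 points (SD, n = 5 pairs, edgeR adjusted p = 6.53e-10). From 150 to 160 Mb it was higher by 2.38 ± 0.44 points (edgeR adjusted p = 1.49e-09). In the first of these windows 27 of 28 genes tested had a higher mean d-score in series 2 and in the second 18 of 26. The windows were picked from the same reads, and genes called one by one are among those counted, so the counts only describe the windows. Relative to all autosomal reads of the same allele, Cast reads from 140 to 150 Mb were lower in series 2 by 0.15 ± 0.026 on the log2 scale, B6 reads differed by 0.018 ± 0.058, and total counts by -0.029 ± 0.067.

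Near the end of the X chromosome the share moved the other way. It was 45.04, 40.7, 33.7, 29.6 and 26.3% from 160 to 170 Mb in series 1 and 41.5, 39.2, 32.1, 27.9 and 24.5% in series 2, lower by 2.05 ± 0.87 points (edgeR adjusted p = 2.31e-08). The difference stood before DOX, at 0 h, and at each later time. From 150 to 160 Mb it was -1.84 ± 0.96 points (edgeR adjusted p = 4.45e-08), and 32 of 43 genes in that window and 28 of 35 in the next had a lower mean d-score in series 2. Here too the windows were picked from the same reads, so the gene counts only describe them. Cast reads in these windows were higher in series 2 by 0.13 ± 0.067 and 0.086 ± 0.072 on the log2 scale, and B6 reads differed by 0.0074 ± 0.048 and -0.051 ± 0.036. On chromosome 6, from 140 to 150 Mb, where Bcat1 lies, the share was higher by 1.61 ± 0.43 points (edgeR adjusted p = 1.89e-08), B6 reads were higher by 0.083 ± 0.019 and Cast reads differed by -0.0063 ± 0.038.

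**Figure D5:**
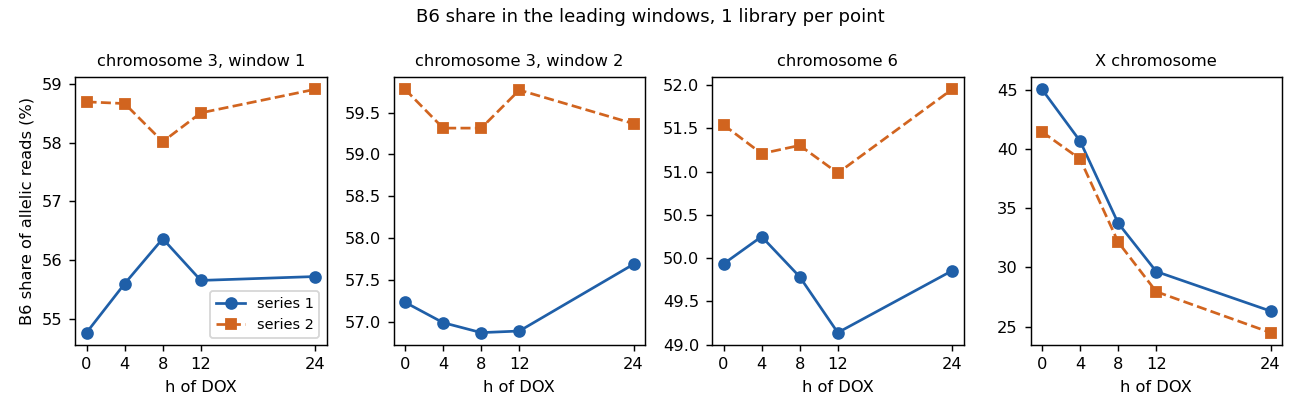
B6 share of allelic reads in percent (y axis, each panel with its own range) by hours of DOX (x axis) in 4 leading windows, series 1 as blue circles and series 2 as orange squares, 1 library per point. The 2 windows of chromosome 3 and that of chromosome 6 keep the series apart at every time, and in the X chromosome window both series fall with time, series 2 below series 1.

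Without the genes called one by one, 25 windows were called, and the 5 named windows were among them. Those 5 were also called with any 1 time pair left out, the 0 h pair included. Whether the numbers of DNA copies of these regions differed between the series was not measured, and their part in these shares was not tested. Over whole chromosomes the median log2 change in total counts lay between -0.04 (chromosome 15) and 0.04 (chromosome 6), and chromosome 6 had the highest share of genes called, 19.6%, against 8.92% on chromosome 19.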

How the data were processed

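TT-seq libraries of 10 TX1072 samples were analysed, 2 replicate series of 5 times each. According to the methods and labels, the authors trimmed reads, aligned them to an mm10 genome masked at B6 and Cast variants, kept unique pairs, split them by allele and counted them over the full span of each gene, on the labelled strand. The methods name STAR, the submitters' processing notes TopHat2 2.1.0 with featureCounts 1.5.1. The deposited count tables hold, per gene, whole-number counts of all reads and of B6 and Cast reads. The deposited allelic ratio, a fraction, was recomputed from the allele counts. All libraries share 1 sequencing run per the labels, which give no batch other than the replicate number.

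The test of total counts was that of edgeR 4.0.16, run in R 4.3.3 (filterByExpr, TMM, quasi-likelihood, time and series terms, 4 residual degrees of freedom). The 0 h interaction had 3. The B6 share used both allele counts of each library as 20 columns with sample, allele, allele by time and allele by series terms. Adjustment was Benjamini-Hochberg. CPM are TMM-scaled, log2 CPM have a prior count of 2. The d-score medians took genes with 10 or more allelic reads whose d-score at 0 h averaged 0.3 to 0.7. Windows needed at least 500 allelic reads and left out Xist. Single values used exact sign-flip permutation over 5 pairs. Scripts were tested on simulated data. Alternatives used DESeq2 1.42.0 and limma 3.58.1.

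Named genes are the 12 largest log2 changes each way among genes with adjusted p under 0.05, 1 sign at 5 times and a mean of at least 1 CPM, up to 4 called members per list by smallest p (2 by level where none was called), Xist, Dusp9 and Klhl13, the 6 largest B6 share changes each way, and up to 5 each way for the interaction. The series, lists and rules were chosen with earlier results of these data known. Further list members are named as examples, and some members that the rule names are not reported here. The total of 29 gene lists and 5 marker lists was examined.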

Additional observations from a re-analysis of the deposited data

Results flagged for a closer look

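In the 0 h library of series 1, 49.2% of counts were assigned to an allele, far below the other 4 libraries of its series. The log2 difference of Spry4 at 12 h (0.27) lay far below its other 4 times, and that of Cd3g at 24 h (-0.60) far above its other 4. With 52 groups of 5 values examined in this way, chance alone marks about 1 in 20.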

How the results depend on the processing

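The number of genes called between the series was 1705 as reported, 951 with DESeq2 (2987 genes had no adjusted p there), 605 without the time term and 209 with an absolute log2 change over 0.5. Leaving out 1 time pair gave 869 to 1653. Genes higher in series 2 were 738 as reported, 253 without the time term, 100 over 0.5 and 386 to 745 with 1 pair left out (lowest without 0 h, 485 without 4 h and 488 without 24 h). Lower genes were 967, 436 with DESeq2, 352 without the time term, 109 over 0.5 and 483 to 908. Higher genes made up 43.3% of the calls with TMM and 54.2% with DESeq2. For the 0 h interaction, DESeq2 gave 26 genes, no filter 35 and removal of the length trend 59, against 0. For the B6 share, DESeq2 gave 12 (11079 of 11906 genes had no adjusted p), the model without allele by time terms 9, and leaving out a pair 55 to 69, against 91. Calls of windows stayed within 1.5 times of 31.

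X-linked reads relative to autosomal reads of the same allele reversed with 1 pair left out, from -0.025 to 0.0030 percentage points for B6 and from -0.0030 to 0.080 for Cast. Eno1 and Cenpf, not called and near 0, changed sign: Eno1 to 0.0051 with RLE, 0.0050 with DESeq2, 0.0027 with no filter, 0.0019 at a mean CPM of at least 1, 0.031 with the length trend removed and -0.013 to 0.0099 with a pair left out. Cenpf changed to 0.0073 with RLE, 0.0073 with DESeq2, 0.0049 with no filter, 0.0041 at a mean CPM of at least 1 and -0.032 to 0.030 with a pair left out. The causes were not tested. For 143 single results, 1537 alternative values were computed: 1257 kept direction and side of the threshold, 259 lost the call, 6 gained it and 15 reversed. No paired analysis beyond the time pairs was possible because the labels give no other pairing. Counts under 10 reads in single libraries limit the low genes.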
